A study of Mus musculus with 8 samples.

Results

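The extracellular ATP and adenosine pathway was followed through 10 genes, Entpd1, Nt5e, Ada, Dpp4, Adora2a, Adora2b, Cd38, Art2b, P2rx7 and P2rx4, which were picked by gene name from the 25078 gene rows of the count and RPKM tables. RNA was sequenced from donor T cells recovered from spleens taken on day 6 of hematopoietic cell transplantation (HCT). The setting was a mouse model of graft-versus-host disease (GVHD), and transcripts of donor T cells with and without STAT3 were compared. The 8 libraries form 4 groups of 2 replicates, with CD4 and CD8 T cells of WT donors and CD4 and CD8 T cells of STAT3KO donors. WT donors were C57BL/6 mice, and STAT3KO donors were C57BL/6 mice carrying floxed Stat3 alleles and a Cre transgene under Cd4 regulatory sequences, so that both CD4 and CD8 T cells pass through a stage with Cre. All recipients were lethally irradiated WT BALB/c mice that also received T cell-depleted bone marrow from WT C57BL/6 donors. The authors describe those given WT T cells as GVHD recipients and those given STAT3KO T cells as non-GVHD recipients. Donor genotype and disease of the recipient therefore vary together, and their parts cannot be told apart. The STAT3KO effect below names the difference between these groups. Donor cells were sorted as H-2Kb+ TCRb+ and CD4+ or CD8+, and each library pools the lymphocytes of several recipients, so the replicates are pools and not animals. Ages are not given in the sources used here.

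ATP that leaves stressed or dying cells acts as a danger signal on P2 receptors of nearby cells. On the cell surface, CD39 (encoded by Entpd1) removes phosphates from ATP and ADP to give AMP, and CD73 (Nt5e) turns AMP into adenosine, which restrains T cells through the cyclic AMP-raising A2a receptor (Adora2a) until adenosine deaminase (Ada) converts it to inosine. Extracellular NAD feeds into the same system: CD38 consumes it, and the ADP-ribosyltransferase ART2.2 (Art2b) uses it to modify the ATP-gated channel P2X7 (P2rx7), whose opening can lead to shedding of surface proteins and death of the T cell.

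Libraries held between 20171396 and 23282757 counts, so that a gene with 0 counts may still have up to 3, or 0.129 to 0.149 CPM, where CPM is a count divided by the scaled library size. This limit covers counting error alone. Stat3 had 436 and 428 CPM in WT CD4 and 138 and 141 CPM in STAT3KO CD4 libraries, and 431 and 436 CPM in WT CD8 and 120 and 143 CPM in STAT3KO CD8 libraries, which goes with the labels. Cd4 lay between 1361 and 1602 CPM in the CD4 libraries and between 1.04 and 8.16 CPM in the CD8 libraries, and Cd8a between 819 and 984 CPM in the CD8 libraries and between 1.70 and 16 CPM in the CD4 libraries. The summed CPM of 9 macrophage markers was higher in replicate 2 than in replicate 1 of every group. Csf1r, the receptor that defines these cells, had between 0.562 and 2.55 CPM in the replicate 1 libraries and between 11.4 and 18.1 CPM in the replicate 2 libraries. Lyz2, Adgre1, C1qa, C1qb, Marco and Vcam1 were also higher in replicate 2 of every group. Itgam was lower in replicate 2 in WT CD4 (36.9 and 22.2 CPM), WT CD8 (114 and 93.0 CPM) and STAT3KO CD8 libraries (136 and 126 CPM). Cd68 was lower in replicate 2 in STAT3KO CD8 libraries (44.8 and 40.5 CPM). The numbers that open the sample titles also run close together within a replicate number and stand apart between the 2, though the labels do not say what they mark. The part of the macrophage transcripts in the results below was not tested. Calls with the replicate number as a block are given beside the main ones, and values within each replicate number are given where one of the 10 genes passed the test.

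Levels were compared between genes in RPKM, which is per length. Averaged over the 8 libraries, Dpp4 and Adora2a ranked at the 82.7th and 80.4th percentile of the 12428 genes that passed the filter on low counts, Nt5e at the 70.6th and Entpd1 at the 55.7th. Art2b, P2rx7 and Cd38 followed at the 48.5th, 44.2nd and 41.9th percentile, and Ada and P2rx4 were the lowest at the 31.4th and 27.7th. The other member, Adora2b, which encodes the low-affinity A2b adenosine receptor, did not pass the filter. In CD4 T cells it had 1 and 0 counts in WT and 1 and 2 in STAT3KO libraries. In CD8 T cells it had 7 and 2 in WT and 0 and 0 in STAT3KO libraries. With such low counts it was left out of the main test of differences between groups.

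**Figure D1:**
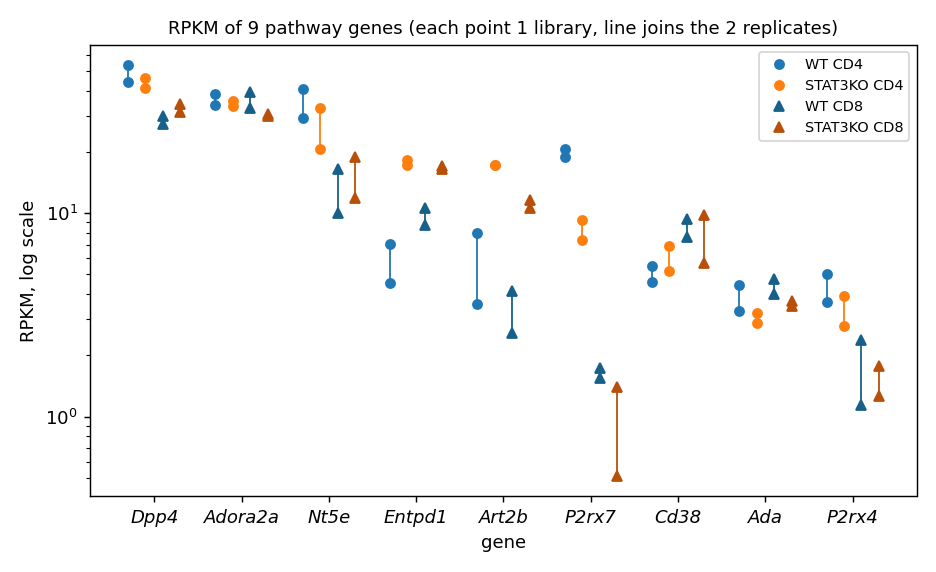
RPKM (log scale) of 9 of the 10 genes, ordered by their mean; each point is a library, circles are CD4 and triangles CD8 T cells, and a line joins the 2 replicates of a group. P2rx7 spans the widest range, from 20.7 RPKM in a WT CD4 library to 0.512 RPKM in a STAT3KO CD8 library; Adora2b, at 0.164 RPKM or less, is left out.

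The order of the levels differed between cell types and genotypes. In WT CD4 T cells, Dpp4 (48.8 ± 6.41 RPKM, SD, n = 2) stood above Adora2a (36.3 ± 3.26 RPKM), whose libraries overlapped those of Nt5e (34.98 ± 8.22 RPKM), and P2rx7 came next (19.7 ± 1.35 RPKM). Below it, the neighbours Entpd1 (5.79 ± 1.75 RPKM), Art2b, Cd38, P2rx4 and Ada (3.87 ± 0.782 RPKM) overlapped each other in turn. In STAT3KO CD4 T cells, Entpd1 (17.6 ± 0.714 RPKM) and Art2b (17.2 ± 0.0225 RPKM), which overlapped, both stood above P2rx7 (8.32 ± 1.32 RPKM).

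In WT CD8 T cells, Adora2a (36.1 ± 4.72 RPKM) was the highest of the 10, above Dpp4 (28.7 ± 1.96 RPKM). Nt5e (13.2 ± 4.595 RPKM), Entpd1 (9.63 ± 1.33 RPKM) and Cd38 (8.47 ± 1.21 RPKM) overlapped in turn, and P2rx4 and P2rx7 (1.64 ± 0.128 RPKM) were the lowest that passed the filter and overlapped. In STAT3KO CD8 T cells, Dpp4 and Adora2a were followed by Entpd1 (16.8 ± 0.341 RPKM), which overlapped Nt5e (15.4 ± 4.91 RPKM), then by Art2b (11.1 ± 0.725 RPKM). P2rx7 therefore held the fourth place in WT CD4 T cells and the ninth in CD8 T cells of either genotype.

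Start-site sequences are shown for Entpd1 and Art2b, which rose in STAT3KO CD4 T cells, for P2rx7, which differed most between CD4 and CD8 T cells, and for Ada, because STAT3 is a transcription factor and its family binds sequences of the form TTCNNNGAA, which reads the same on both strands. RefSeq windows (GRCm38.p6, 250 bases before to 50 bases after a start site) were found for 9 of the 10 genes, 11 windows in all, and only 1 of them, that of Ada, held a match, which begins 90 bases before the start site. Over all 32851 windows of this length, 8.30% held a match. Each run below gives the 250 bases before the start site and the start base, 5′ to 3′ on the strand of the gene, with the start base and any match in capitals; Entpd1 and P2rx7 have a further start site that is not shown. A match describes these letters only, and the lack of one says nothing of binding elsewhere.
Entpd1, chr19:40612116-40612366, plus strand: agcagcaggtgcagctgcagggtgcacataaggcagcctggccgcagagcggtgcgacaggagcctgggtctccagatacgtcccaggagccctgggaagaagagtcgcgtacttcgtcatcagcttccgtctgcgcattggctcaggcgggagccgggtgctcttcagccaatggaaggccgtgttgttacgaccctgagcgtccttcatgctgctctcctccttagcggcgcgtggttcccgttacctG
Art2b, chr7:101581161-101581411, minus strand: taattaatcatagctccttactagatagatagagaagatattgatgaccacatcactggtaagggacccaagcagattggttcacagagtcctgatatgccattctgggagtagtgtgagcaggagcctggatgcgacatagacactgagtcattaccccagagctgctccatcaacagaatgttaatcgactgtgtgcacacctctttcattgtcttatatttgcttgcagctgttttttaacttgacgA
P2rx7, chr5:122643677-122643927, plus strand: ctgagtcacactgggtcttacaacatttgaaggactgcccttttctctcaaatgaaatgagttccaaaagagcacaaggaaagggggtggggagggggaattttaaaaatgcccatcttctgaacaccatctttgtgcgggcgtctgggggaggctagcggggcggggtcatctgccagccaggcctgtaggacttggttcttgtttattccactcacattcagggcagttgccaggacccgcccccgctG
Ada, chr2:163750239-163750489, minus strand: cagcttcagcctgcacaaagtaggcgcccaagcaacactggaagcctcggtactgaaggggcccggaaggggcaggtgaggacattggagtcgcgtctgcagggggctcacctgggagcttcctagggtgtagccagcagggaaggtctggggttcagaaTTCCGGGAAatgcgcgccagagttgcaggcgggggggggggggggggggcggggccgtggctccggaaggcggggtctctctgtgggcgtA

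Loss of STAT3 in CD4 T cells went with higher Entpd1 and Art2b transcripts. Of the 9 genes tested, 2 rose and 0 fell in STAT3KO CD4 T cells (edgeR quasi-likelihood test, Benjamini-Hochberg adjusted p under 0.05), where 11.6% of all 12428 genes tested passed (6.54% rose and 5.08% fell). The libraries of the groups did not overlap for 4 of the 9 (Entpd1, Art2b, P2rx7 and Ada), against 53.5% of all genes. In CD8 T cells 0 of the 9 passed, where 2.07% of all genes did (1.34% rose and 0.732% fell), and the groups did not overlap for 6 of the 9 (Entpd1, Art2b, P2rx7, Ada, Adora2a and Dpp4), against 49.7% of all genes. With the replicate number as a block in the same fit, 4 of the 9 passed in CD4 T cells (Entpd1, Art2b, P2rx7 at an edgeR adjusted p of 0.00205 and Nt5e at 0.00927), where 30.1% of all genes did, and 2 in CD8 T cells (Entpd1 at 0.00595 and Art2b at 0.00135), where 18.2% did. The median log2 fold change of the 9 was -0.13 for CD4 T cells and -0.11 for CD8 T cells, beside 0.02 and -0.01 over all genes. From bulk libraries, fewer cells of a kind and less RNA per cell cannot be told apart, and the p-values measure the spread between pools, which may be technical.

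**Figure D2:**
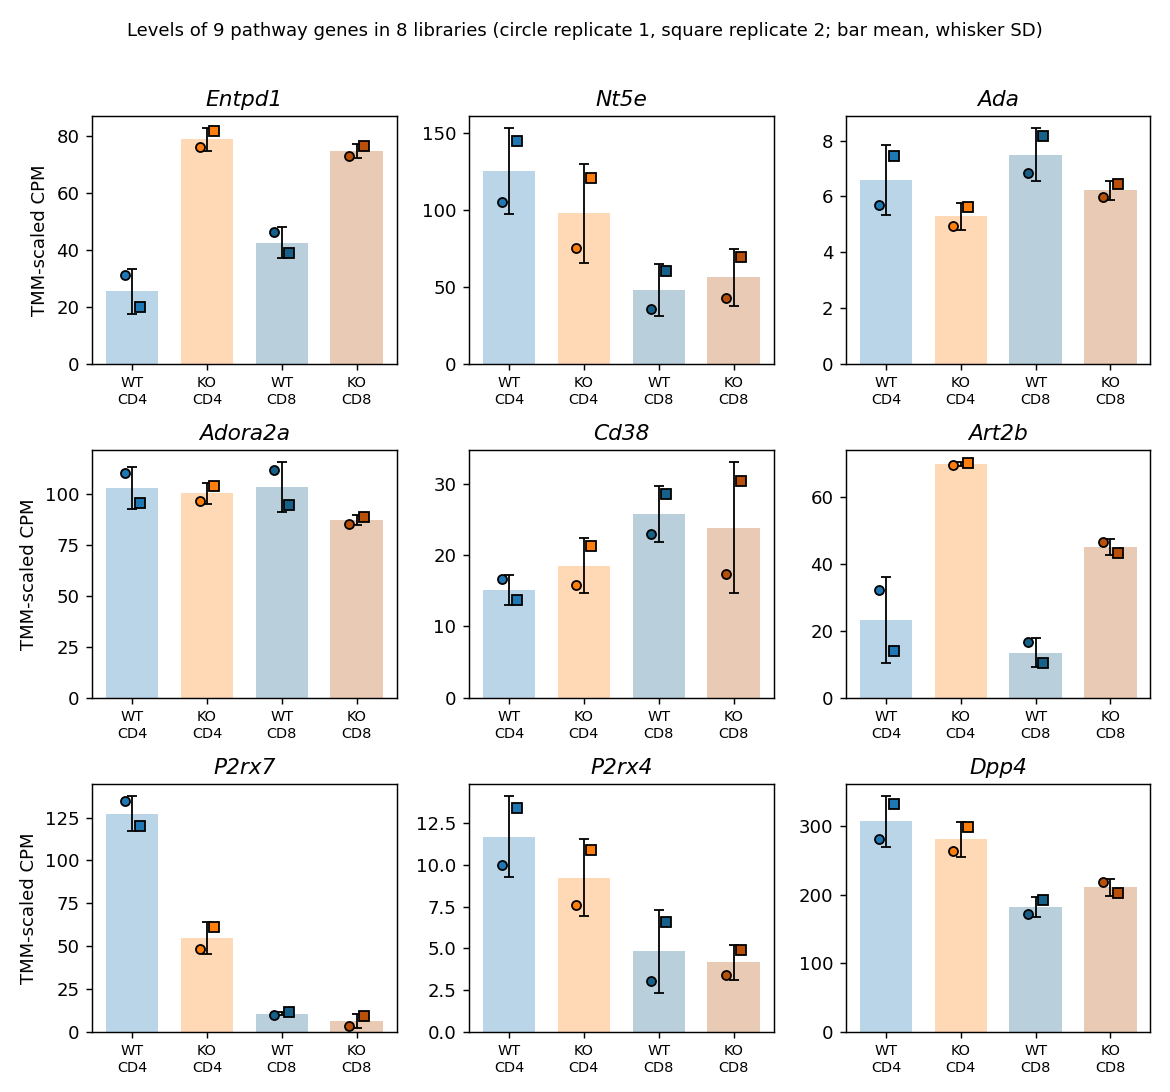
CPM after TMM scaling of the 9 genes that passed the filter, in WT and STAT3KO (KO) CD4 and CD8 T cells; circles are replicate 1, squares replicate 2, bars the mean and whiskers the SD (n = 2). Entpd1 and Art2b are higher in all 4 STAT3KO libraries than in any WT library, and P2rx7 falls from 135 and 120 CPM in WT CD4 to 3.33 and 9.20 CPM in STAT3KO CD8 libraries.

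**Figure D3:**
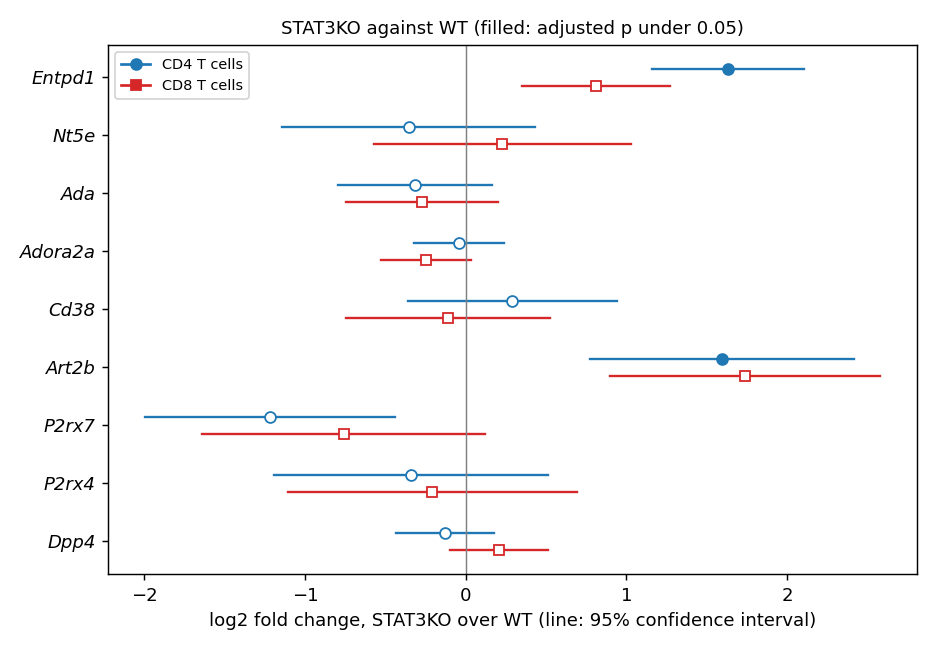
Log2 fold change of STAT3KO over WT in CD4 (circles) and CD8 (squares) T cells for the 9 genes; lines are 95% confidence intervals and filled symbols passed at an adjusted p under 0.05. Entpd1 and Art2b are filled in CD4 T cells (1.63 and 1.59), no CD8 symbol is filled, and the intervals of Nt5e, Cd38, Adora2a, Ada, P2rx4 and Dpp4 include 0 in both cell types.

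Entpd1 (chromosome 19, 40612366 to 40741602 on mm10, plus strand) encodes the enzyme that takes ATP and ADP to AMP, and is known as a marker of regulatory and of chronically stimulated T cells. Among CD4 T cells, the WT libraries had 31.0 and 19.8 CPM and the STAT3KO libraries 75.9 and 81.5 CPM. Among CD8 T cells, they had 46.3 and 38.7 CPM and 72.9 and 76.3 CPM. All 4 STAT3KO libraries lay above all 4 WT libraries, and the STAT3KO CD4 and CD8 libraries overlapped. Entpd1 rose 3.10-fold in CD4 T cells (log2 fold change 1.63, SE 0.20, 95% confidence interval 1.16 to 2.11, edgeR adjusted p 0.00347). The log2 ratio was 1.29 between the replicate 1 libraries and 2.04 between the replicate 2 libraries. In CD8 T cells the log2 fold change was 0.81 (SE 0.20, interval 0.35 to 1.27), which did not pass (edgeR adjusted p 0.0837). This CD8 value passed under 5 of 16 alternative settings without the replicate block, and its log2 fold change over all 16 lay between 0.68 and 0.94. Among the 5 were both fits without a WT CD4 library, which do not enter this contrast but share its estimate of the spread. The difference of the STAT3KO effects between CD8 and CD4 T cells was -0.82 (SE 0.28, interval -1.47 to -0.17), with an unadjusted p of 0.0196 and an edgeR adjusted p of 0.474.

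Nt5e (chromosome 9, 88327609 to 88372089, plus strand) encodes CD73, the enzyme of the next step, which yields adenosine and is also known as a marker of anergic CD4 T cells. Its level was 105 and 145 CPM in WT and 75.1 and 121 CPM in STAT3KO libraries of CD4 T cells. Its CD8 level was 35.7 and 59.9 CPM in WT and 43.0 and 69.1 CPM in STAT3KO libraries. The STAT3KO and WT libraries overlapped in both cell types, and in every group replicate 2 was the higher. The log2 fold change was -0.35 in CD4 T cells (interval -1.14 to 0.43, edgeR adjusted p 0.566) and 0.23 for CD8 T cells (interval -0.57 to 1.03, edgeR adjusted p 0.791), neither of which passed. Within replicate 1 and replicate 2 it was -0.49 and -0.26 in CD4 T cells, and 0.27 and 0.21 in CD8 T cells. With the replicate number as a block, the CD4 value passed (-0.38, edgeR adjusted p 0.00927), the CD8 value did not (0.103), and the difference of the effects passed (0.61, edgeR adjusted p 0.0289), where 3.24% of all genes did. Izumo1r, which encodes folate receptor 4 and is used together with CD73 to mark anergic CD4 T cells, had 57.4 and 60.6 CPM in WT CD4 and 46.3 and 66.3 CPM in STAT3KO CD4 libraries, which also overlap.

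Art2b (chromosome 7, 101575729 to 101581161, minus strand) encodes the surface ADP-ribosyltransferase ART2.2, which attaches ADP-ribose from NAD to P2X7 and other surface proteins. The CD4 libraries gave 32.3 and 14.1 CPM for WT and 69.6 and 70.4 CPM for STAT3KO. The CD8 libraries gave 16.6 and 10.4 CPM for WT and 46.8 and 43.3 CPM for STAT3KO. As for Entpd1, every STAT3KO library lay above every WT library, and here the 2 WT CD4 libraries lay far apart. In CD4 T cells Art2b rose 3.02-fold (log2 fold change 1.59, SE 0.35, interval 0.77 to 2.42, edgeR adjusted p 0.0275). The log2 ratio was 1.11 within replicate 1 and 2.32 within replicate 2. The CD4 call was lost when any of 5 libraries was left out: the edgeR adjusted p was then 0.0588 (WT CD4 replicate 2), 0.116 and 0.113 (STAT3KO CD4 replicates 1 and 2), or 0.0531 and 0.0528 (STAT3KO CD8 replicates 1 and 2). In CD8 T cells the log2 fold change was 1.74 (SE 0.36, interval 0.90 to 2.58) and missed the threshold (edgeR adjusted p 0.0606). It passed under 5 of the 16 alternatives without the block, among them both fits without a WT CD4 library. Over all 16 the log2 fold change lay between 1.43 and 2.10. The effects in the 2 cell types differed by 0.14 (interval -1.01 to 1.30, edgeR adjusted p 0.999).

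Art2b has a neighbour of related sequence, listed as Art2a, which RefSeq gives as a transcribed pseudogene. Of the 51-base words of the Art2b transcripts, 5.70% also occur in transcripts of Art2a or other genes. Reads from such stretches can be assigned to either gene or dropped. Art2a, which was chosen after its values were seen, had 59 and 49 counts in the WT and 152 and 215 in the STAT3KO libraries of CD4 T cells, and 7 and 6 against 32 and 24 counts in CD8 T cells. Its STAT3KO libraries lay above the WT libraries of the same cell type, as those of Art2b did.

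Cd38 (chromosome 5, 43868809 to 43912374, plus strand) encodes the main NAD-consuming surface enzyme of leukocytes. Among CD4 T cells, the WT libraries had 16.6 and 13.7 CPM and the STAT3KO libraries 15.8 and 21.3 CPM. Among CD8 T cells, they had 22.95 and 28.6 CPM and 17.3 and 30.3 CPM. The genotypes overlapped in both cell types, with log2 fold changes of 0.29 in CD4 (interval -0.36 to 0.94, edgeR adjusted p 0.566) and -0.11 for CD8 T cells (interval -0.75 to 0.52, edgeR adjusted p 0.881).

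Ada (chromosome 2, 163726571 to 163750239, minus strand) encodes adenosine deaminase, which ends adenosine signals. Its level was 5.69 and 7.47 CPM in WT and 4.95 and 5.62 CPM in STAT3KO libraries of CD4 T cells. Its CD8 level was 6.83 and 8.17 CPM in WT and 5.98 and 6.45 CPM in STAT3KO libraries. The STAT3KO libraries were below the WT libraries of the same cell type without overlap, but neither change passed (log2 fold change -0.31, interval -0.80 to 0.17, edgeR adjusted p 0.383 in CD4; -0.27, interval -0.75 to 0.20, edgeR adjusted p 0.537 in CD8 T cells).

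Dpp4 (chromosome 2, 62330073 to 62412231, minus strand) encodes CD26, a surface peptidase and costimulator of T cells whose human form binds adenosine deaminase. The CD4 libraries gave 281 and 333 CPM for WT and 263 and 299 CPM for STAT3KO. The CD8 libraries gave 172 and 193 CPM for WT and 219 and 202 CPM for STAT3KO. The CD4 groups overlapped and the CD8 groups did not, and neither change passed (log2 fold change -0.13, interval -0.43 to 0.18, edgeR adjusted p 0.592 in CD4; 0.21, interval -0.10 to 0.51, edgeR adjusted p 0.452 in CD8 T cells). An antisense gene covers 3.67% of the exon bases of Dpp4, and whether the counting took the strand into account is not given in the sources used here.

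Adora2a (chromosome 10, 75316877 to 75334792, plus strand) encodes the A2a receptor through which adenosine inhibits T cells. Among CD4 T cells, the WT libraries had 110 and 95.5 CPM and the STAT3KO libraries 96.6 and 104 CPM. Among CD8 T cells, they had 112 and 94.4 CPM and 85.2 and 88.7 CPM. Its range over the 8 libraries was the narrowest of the 9 genes relative to its level, and the genotypes overlapped in CD4 but not in CD8 T cells. The log2 fold change was -0.04 in CD4 T cells (interval -0.32 to 0.24, edgeR adjusted p 0.877) and -0.25 for CD8 T cells (interval -0.53 to 0.03, edgeR adjusted p 0.321). Of the other adenosine receptors, Adora1 had 0 counts in every library and Adora3 had at most 3 counts (in WT CD8 replicate 1), so Adora2a was the only adenosine receptor gene that passed the filter.

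P2rx7 (chromosome 5, 122643927 to 122692336, plus strand) encodes the ATP-gated channel that ART2.2 modifies, whose activation by ATP or NAD is known to kill T cells that carry much of it. Its level was 135 and 120 CPM in WT and 48.2 and 61.2 CPM in STAT3KO libraries of CD4 T cells. Its CD8 level was 9.99 and 11.3 CPM in WT and 3.33 and 9.20 CPM in STAT3KO libraries. The 4 groups did not overlap, with both CD4 groups above both CD8 groups and WT above STAT3KO in each cell type. In CD4 T cells the log2 fold change was -1.22 (SE 0.33, interval -2.00 to -0.44), which just missed the threshold (edgeR adjusted p 0.0566). The log2 ratio was -1.48 within replicate 1 and -0.97 within replicate 2. The CD4 value passed under 7 of the 16 alternatives without the block, and over all 16 it lay between -1.40 and -1.08. Among the 7 were both fits without a STAT3KO CD8 library, which enter this contrast only through the shared spread. In CD8 T cells the log2 fold change was -0.76 (interval -1.64 to 0.12, edgeR adjusted p 0.328), with -1.59 within replicate 1 and -0.30 within replicate 2. P2rx7 and Art2b, the channel and the enzyme that modifies it, therefore stood in opposite order between WT and STAT3KO CD4 libraries: P2rx7 had 20.7 and 18.8 RPKM beside 8.01 and 3.56 RPKM of Art2b in WT, and 7.38 and 9.25 RPKM beside 17.2 and 17.1 RPKM in STAT3KO libraries. A microRNA gene annotated on the same strand shares 1.99% of the exon bases of P2rx7.

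P2rx4 (chromosome 5, 122707544 to 122729738, plus strand) encodes a further ATP-gated channel and lies close to P2rx7. The CD4 libraries gave 9.98 and 13.4 CPM for WT and 7.60 and 10.9 CPM for STAT3KO. The CD8 libraries gave 3.07 and 6.57 CPM for WT and 3.42 and 4.92 CPM for STAT3KO. The genotypes overlapped in both cell types (log2 fold change -0.34, interval -1.19 to 0.51, edgeR adjusted p 0.615 in CD4; -0.21, interval -1.11 to 0.69, edgeR adjusted p 0.838 in CD8 T cells). None of the other 5 ATP-gated channel genes passed the filter, the most abundant being P2rx1 with at most 15 counts, or 0.677 CPM (STAT3KO CD8 replicate 2).

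The STAT3KO effect did not differ between CD8 and CD4 T cells beyond the threshold for any of the 9 genes (edgeR), and the same holds for all 12428 genes (0 called, 0%; 982 at an unadjusted p under 0.05; 188 by DESeq2). This comparison therefore does not show that the effects were alike. Apart from Entpd1, the differences lay between -0.40 (Cd38, interval -1.31 to 0.51) and 0.58 (Nt5e, interval -0.54 to 1.70).

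CD8 and CD4 T cells were next compared within each genotype, which asks how the cell types divide the pathway. In WT T cells, 5 of the 9 genes differed: 4 were lower in CD8 (P2rx7, Nt5e, P2rx4 and Dpp4), where 11.6% of all genes were lower, and Entpd1 was higher, where 12.2% were higher. The groups did not overlap for 6 of the 9 (these 5 and Cd38), against 59.3% of all genes. In STAT3KO T cells, 1 of the 9, P2rx7, was lower in CD8, where 6.67% of all genes were lower, and 0 were higher, where 5.84% were. The groups did not overlap for 7 of the 9, against 58.3% of all genes. With the replicate number as a block, 7 of the 9 passed in WT (also Cd38 at an edgeR adjusted p of 0.0128 and Art2b at 0.0318), where 42.1% of all genes did, and 5 in STAT3KO T cells (P2rx7, Nt5e, P2rx4, Dpp4 and Art2b), where 29.7% did. The median log2 fold change of the 9 genes, CD8 over CD4, was -0.75 in WT and -0.42 in STAT3KO T cells, beside 0.00 over all genes in both.

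**Figure D4:**
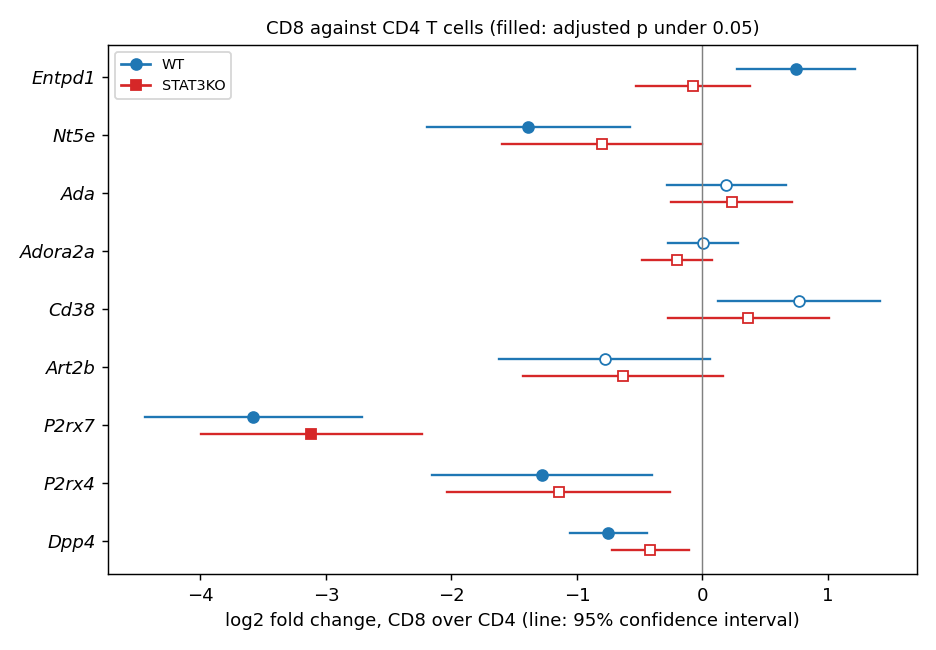
Log2 fold change of CD8 over CD4 T cells in WT (circles) and STAT3KO (squares) for the 9 genes, with 95% confidence intervals; filled symbols passed at an adjusted p under 0.05. P2rx7 is the farthest to the left in both genotypes (-3.58 and -3.12), and Entpd1 is to the right in WT (0.75) and near 0 in STAT3KO (-0.08).

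P2rx7 had the largest difference of the 9. Its log2 fold change, CD8 over CD4, was -3.58 in WT (SE 0.37, interval -4.44 to -2.71, edgeR adjusted p 0.000591) and -3.12 in STAT3KO T cells (SE 0.38, interval -4.00 to -2.24, edgeR adjusted p 0.00276). Within replicate 1 and replicate 2 it was -3.75 and -3.41 in WT, and -3.86 and -2.73 in STAT3KO T cells. Cd4 transcripts in the CD8 libraries reached at most 8.16 CPM, against at least 1361 CPM in the CD4 libraries. P2rx4, its neighbour on chromosome 5, went the same way, at -1.28 in WT (SE 0.38, interval -2.16 to -0.40, edgeR adjusted p 0.0451; -1.70 within replicate 1 and -1.03 within replicate 2) and -1.15 in STAT3KO T cells (SE 0.38, interval -2.03 to -0.26, edgeR adjusted p 0.0958). The WT call of P2rx4 was lost without any of 7 of the 8 libraries (all but WT CD8 replicate 2), with edgeR adjusted p between 0.0556 and 0.165. In STAT3KO T cells P2rx4 passed under 6 of the 16 alternatives without the block, and its log2 fold change over all 16 lay between -1.43 and -0.79.

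Nt5e was lower in WT CD8 than in WT CD4 T cells (log2 difference -1.39, SE 0.35, interval -2.19 to -0.58, edgeR adjusted p 0.0246; -1.56 within replicate 1 and -1.27 within replicate 2). The call was lost without WT CD4 replicate 2 (edgeR adjusted p 0.0928) or WT CD8 replicate 1 (0.122). In STAT3KO T cells the value was -0.80 (SE 0.34, interval -1.60 to -0.01), which did not pass (edgeR adjusted p 0.179). Dpp4 was also lower in WT CD8 T cells (-0.75, SE 0.13, interval -1.06 to -0.44, edgeR adjusted p 0.0055; -0.71 and -0.79 within replicates 1 and 2), and had -0.42 (SE 0.13, interval -0.72 to -0.11, edgeR adjusted p 0.0819) in STAT3KO T cells.

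Entpd1 was the one gene of the 9 that passed the test as higher in WT CD8 than in WT CD4 T cells (log2 difference 0.75, SE 0.20, interval 0.28 to 1.21, edgeR adjusted p 0.0328; 0.58 and 0.97 within replicates 1 and 2). This call was lost without any of 6 libraries (all but WT CD4 replicate 1 and WT CD8 replicate 2), with edgeR adjusted p between 0.0568 and 0.165, and without WT CD4 replicate 2 the log2 fold change was 0.44. In STAT3KO T cells the value was -0.08 (interval -0.53 to 0.38, edgeR adjusted p 0.852). In WT CD4 libraries, where Entpd1 was lowest and Nt5e highest, the RPKM of Entpd1 were 7.02 and 4.55 beside 29.2 and 40.8 of Nt5e; in STAT3KO CD8 libraries they were 16.5 and 17.0 beside 11.9 and 18.9.

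Cd38 had 0.77 in WT (interval 0.12 to 1.41), with no overlap of the libraries, which did not pass (edgeR adjusted p 0.0866). This WT value passed under 6 of the 16 alternatives without the block, and over all 16 it lay between 0.59 and 0.90. In STAT3KO T cells Cd38 had 0.36 (edgeR adjusted p 0.455). Art2b had -0.78 in WT (interval -1.62 to 0.06, edgeR adjusted p 0.166) and -0.63 in STAT3KO T cells (interval -1.43 to 0.16, edgeR adjusted p 0.287). The WT value lay between -1.27 and -0.08 over the 16 alternatives without the block. It passed under 1 of them, the fit without WT CD4 replicate 2. Adora2a had 0.00 in WT (interval -0.28 to 0.28) and -0.20 in STAT3KO T cells (interval -0.48 to 0.08). Ada had 0.19 (interval -0.29 to 0.66) and 0.23 (interval -0.25 to 0.71), and none of these passed.

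The rest of the pathway was read from a list of 96 further genes in 9 groups, from ATP release to the steps downstream of the receptors, of which 94 were in the tables and 71 passed the filter. In STAT3KO CD4 T cells 6 of the 71 rose (8.45%, beside 6.54% of all genes) and 3 fell (4.23%, beside 5.08%), shares near those of all genes. In STAT3KO CD8 T cells 4 rose (5.63%, beside 1.34%) and 1 fell (1.41%, beside 0.732%). The median log2 fold change of the 71 was 0.08 for CD4 T cells and 0.04 for CD8 T cells.

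**Figure D5:**
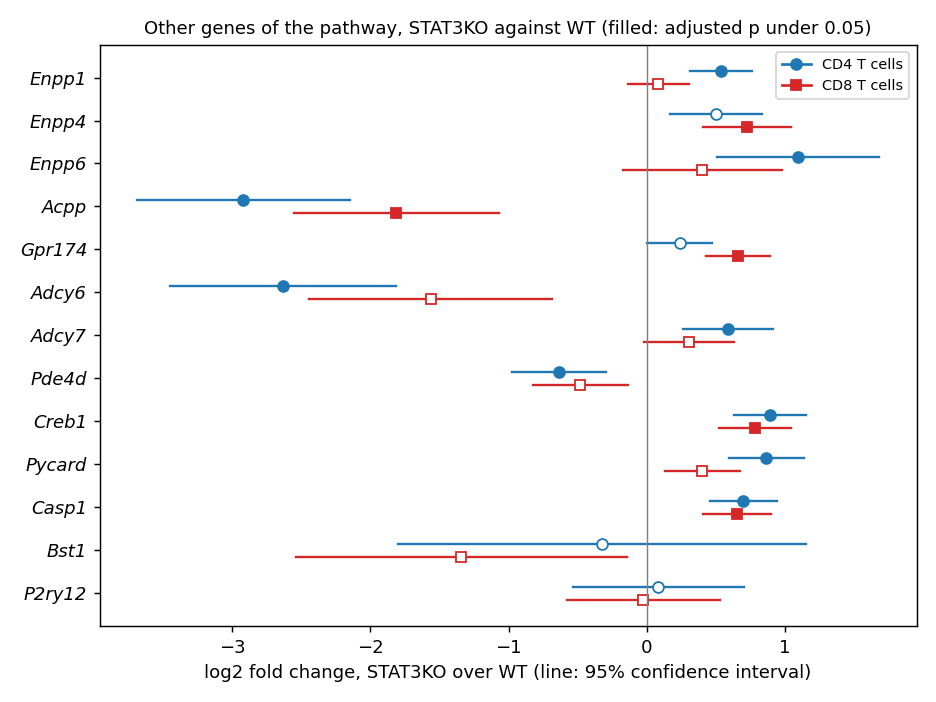
Log2 fold change of STAT3KO over WT in CD4 (circles) and CD8 (squares) T cells for the 13 named genes of the wider list, with 95% confidence intervals; filled symbols passed at an adjusted p under 0.05. Acpp (-2.92 and -1.81) and Adcy6 (-2.63 and -1.56) are the farthest to the left, and Creb1 and Casp1 are filled to the right of 0 in both cell types.

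Among 11 further nucleotide-hydrolysing enzymes that passed the filter, 2 rose and 1 fell in STAT3KO CD4 T cells, beside 6.54% and 5.08% of all genes. The one that fell, Acpp, encodes prostatic acid phosphatase, whose transmembrane form also turns AMP into adenosine. In CD4 T cells it stood at 71.7 and 114 CPM in the WT and 10.3 and 14.3 CPM in the STAT3KO libraries (-2.92 on the log2 scale, SE 0.33, edgeR adjusted p 0.00252), and for CD8 T cells at 41.2 and 68.0 CPM against 13.5 and 17.6 CPM (-1.81, SE 0.32, edgeR adjusted p 0.0364). In RPKM, Acpp was below Nt5e in every library, with 11.95 RPKM in WT CD4 replicate 1 against 29.2 for Nt5e. Enpp1, which cleaves ATP and NAD on the cell surface, rose from 70.3 and 74.6 to 108 and 102 CPM in CD4 T cells (0.54, edgeR adjusted p 0.0130), and Enpp6, a relative that acts on choline lipids, from 2.34 and 1.89 to 4.75 and 4.30 CPM (1.09, edgeR adjusted p 0.0317). Enpp4, which cleaves dinucleotides, rose in CD8 T cells from 22.2 and 23.4 to 33.1 and 42.1 CPM (0.72, edgeR adjusted p 0.0464).

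Of 22 genes of cyclic AMP signalling, the step below the A2a receptor, 2 rose and 2 fell in STAT3KO CD4 T cells. Over all genes, 6.54% rose and 5.08% fell in the same comparison. Adcy6, an adenylyl cyclase, fell from 16.1 and 17.2 to 2.90 and 2.47 CPM (log2 fold change -2.63, SE 0.35, edgeR adjusted p 0.00440), whereas Adcy7, another adenylyl cyclase and the more abundant, rose from 385 and 291 to 523 and 492 CPM (0.59, edgeR adjusted p 0.0365). Pde4d, a phosphodiesterase that degrades cyclic AMP, fell from 95.7 and 108 to 61.8 and 69.6 CPM (-0.64, edgeR adjusted p 0.0309). Creb1, the transcription factor that protein kinase A activates, rose in both cell types (0.89 in CD4, edgeR adjusted p 0.00361; 0.78 in CD8, edgeR adjusted p 0.0227).

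Of 9 inflammasome and shedding genes, which act downstream of P2X7 in other cells, 2 rose in STAT3KO CD4 T cells and 1 in CD8 T cells. Over all genes, 6.54% rose in CD4 and 1.34% in CD8 T cells. Casp1, the protease of the inflammasome, rose from 133 and 137 to 202 and 235 CPM in CD4 T cells (0.70 on the log2 scale, edgeR adjusted p 0.00663), and by 0.65 on the same scale in CD8 T cells (edgeR adjusted p 0.0305). Pycard, its adaptor, rose from 92.4 and 96.9 to 162 and 183 CPM in CD4 T cells (0.86, edgeR adjusted p 0.00469). Gpr174, a lysophospholipid receptor counted with the P2Y receptors, rose in CD8 T cells from 111 and 103 to 170 and 169 CPM (0.66, edgeR adjusted p 0.0271). None of the 15 genes of adenosine uptake and metabolism, the 4 of ATP release or the 3 other NAD enzymes that passed the filter was called in either STAT3KO comparison. The share of all genes that passed was 11.6% for STAT3KO CD4 and 2.07% for STAT3KO CD8. At such shares lists this short may hold no called gene, so these steps are not shown to be unchanged.

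The CD8 calls of Acpp, Creb1, Casp1 and Gpr174 were each lost without any of 6 libraries, those of the CD8 and STAT3KO CD4 groups (edgeR adjusted p up to 0.196, 0.183, 0.214 and 0.214), and that of Enpp4 without any of the 8 (up to 0.238). In CD4 T cells, the calls of Acpp, Adcy6, Creb1 and Pycard held without each library in turn, that of Casp1 was lost without STAT3KO CD4 replicate 2 (0.0589), and those of Enpp1, Enpp6, Pde4d and Adcy7 were lost without any of 4, 6, 3 and 7 libraries (up to 0.11, 0.169, 0.167 and 0.198).

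Between cell types, 7 of the 71 genes were higher (9.86%, beside 12.2% of all genes) and 5 lower (7.04%, beside 11.6%) in WT CD8 than in WT CD4 T cells. In STAT3KO T cells 4 were higher (5.63%, beside 5.84%) and 4 lower (5.63%, beside 6.67%), so none of these shares was above that of all genes. Bst1, a relative of Cd38 that also uses NAD, had 5 and 11 counts in WT CD4 and 45 and 69 counts in WT CD8 libraries (a log2 fold change of 2.63, SE 0.56, edgeR adjusted p 0.0131, lost without WT CD4 replicate 1 at 0.0751 or WT CD8 replicate 2 at 0.0614). P2ry12, a receptor for ADP, had 3.34 and 3.31 CPM in WT CD4 and 16.5 and 10.2 CPM in WT CD8 libraries (2.00, edgeR adjusted p 0.00141), and 1.89 in STAT3KO T cells (edgeR adjusted p 0.00408). Enpp4 and Casp1 differed in both genotypes, Enpp4 being higher in CD8 (1.09 and 1.31) and Casp1 lower (-1.07 and -1.11, WT and STAT3KO). Adcy6 was lower in WT CD8 T cells (-2.24, edgeR adjusted p 0.00299).

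Markers of other cells were set beside Entpd1 and Art2b, since other leukocytes also express CD39. In CD4 T cells the 9 macrophage markers summed to 60.4 and 105 CPM in the WT and 106 and 199 CPM in the STAT3KO libraries, and in CD8 T cells to 157 and 257 CPM and to 195 and 272 CPM, and none was at 0. Of these sums, Itgam alone gave 36.9 and 22.2 CPM in WT CD4 and 80.3 and 86.0 CPM in STAT3KO CD4 libraries. In CD8 T cells Itgam gave 114 and 93.0 CPM in WT and 136 and 126 CPM in STAT3KO libraries. Cd68 gave 37.2 and 49.3 CPM in WT CD8 and 44.8 and 40.5 CPM in STAT3KO CD8 libraries. Of these 9 genes, 1 rose in STAT3KO CD4 T cells (Itgam, log2 fold change 1.49, which T cells and NK cells can also express) and 0 in CD8 T cells. Over all genes, 6.54% rose in CD4 and 1.34% in CD8 T cells. C1qa, which is made by macrophages, had 1.60 and 13.3 CPM in WT CD4 and 3.10 and 17.4 CPM in STAT3KO CD4 libraries. Of 6 markers of regulatory T cells, 0 passed the test in either STAT3KO comparison, where 11.6% (CD4) and 2.07% (CD8) of all genes did. Together the 6 summed to 1860 and 2151 CPM in WT CD4 and 1557 and 2091 CPM in STAT3KO CD4 libraries, which overlapped. Foxp3, which defines regulatory T cells, had 12.2 and 10.3 CPM in WT CD4 and 12.8 and 15.9 CPM in STAT3KO CD4 libraries. These did not overlap, as for 53.5% of all genes. In CD8 T cells it had 12.3 and 12.1 CPM in WT and 11.4 and 20.8 CPM in STAT3KO libraries, which overlapped. Of 4 NK cell markers (3 tested), Eomes (also made by activated T cells) rose in CD4 T cells (2.03), and of 7 B cell markers (3 tested) Cd79b rose (1.10) and Pax5 fell (-5.19). In this comparison 6.54% of all genes rose and 5.08% fell. Of the 5 dendritic cell markers Siglech and Clec9a were at 0 in every group, and the list summed to between 0.675 and 1.83 CPM. The part of other cells in the STAT3KO differences was not tested.

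The genes whose log2 CPM followed each member most closely over the 8 libraries were found by Pearson's r among 8844 or 8845 genes, as a description, since the libraries of a group share its conditions. For Entpd1 they were Cxcr6 (r = 0.991), a chemokine receptor of tissue-homing T cells, Gm6637 (0.990) and Serpini1 (0.983). Art2b was followed by Trim34a (0.994), H2-T24 (0.991) and 5530601H04Rik (0.990), and P2rx7 by Cemip2 (0.998), Vwa5a (0.993) and Nfkbia (0.993). Nt5e was followed by Sgpl1 (0.989), Clock (0.985) and Jmjd1c (0.984), and Dpp4 by Dmtf1 (0.992), Stx5a (0.987) and Slc10a3 (0.981). The closest to P2rx4 were Usb1 (0.984), Selenop (0.982) and Cyth3 (0.977), and to Ada they were Cct2 (0.989), Vdac2 (0.987) and Lias (0.987). Cd38 and Adora2a had weaker partners, Litaf (0.955), Syk (0.929) and Nup214 (0.929) for Cd38, and Eef2kmt (0.894), Hps1 (0.888) and Tpcn2 (0.846) for Adora2a. No gene stood among the closest 3 of more than 1 member.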

How the data were processed

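The authors used STAR for alignment to mm10 and HTSeq for counting over RefSeq genes, and deposited raw read counts per gene and RPKM values (per exon length and library size) for the 8 libraries; tool versions and the strand setting are not given here. The growth, treatment and kit fields of the labels do not match spleen T cells and were not used. Counts were filtered with filterByExpr (minimum count 10, by group; 12428 genes kept), scaled by TMM and tested in edgeR 4.0.16 under R 4.3.3 (quasi-likelihood, all 8 libraries in one fit, no covariate, two-sided, Benjamini-Hochberg adjusted p under 0.05 over all genes tested), a step tested on simulated data. Standard errors derive from the F statistic. CPM are TMM-scaled, and values are means ± SD of 2 replicates. Alternatives used DESeq2 1.42.0, limma 3.58.1, other scalings and filters, a replicate block and leaving out each library. Depth was 20171396 to 23282757 counts. Shared sequence was counted over GENCODE M21 transcripts.

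The 10 genes, the lists and the tests were chosen with earlier results of these data known. Named were the 10 genes, Stat3, Cd4 and Cd8a, the genes of the wider list called in a STAT3KO comparison, the 3 called with the largest change between CD8 and CD4 T cells in each genotype, and the 3 genes most like each member (mean log2 CPM of at least 3). Marker genes and Izumo1r are named as checks. The values of 1 marker gene are not reported here.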

Additional observations from a re-analysis of the deposited data

How the results depend on the processing

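Of 756 log2 fold changes of the 9 genes recomputed under 17 alternatives, 660 kept their direction and their side of the threshold, 43 kept their direction and now passed, 23 kept it and no longer passed, and 30 changed direction. The calls of Entpd1 in STAT3KO CD4 T cells, of P2rx7 between cell types in both genotypes and of Dpp4 between WT CD8 and CD4 T cells held under each. The number of the 9 genes called in STAT3KO CD8 T cells went from 0 to 2 (Entpd1 and Art2b) with DESeq2, the edgeR likelihood-ratio test and no filter on low counts. Between STAT3KO CD8 and CD4 T cells it went from 1 to 3 with DESeq2 and with the 4 libraries of that contrast alone, and to 2 with the likelihood-ratio test and with no filter. Leaving out libraries in turn gave 1 to 2 calls in STAT3KO CD4, 0 to 2 in STAT3KO CD8, 2 to 5 between WT cell types and 1 to 2 between STAT3KO cell types. P2rx7 in STAT3KO CD4 T cells passed under 7 of 16 alternatives without the block (adjusted p 0.00212 to 0.251). In the RPKM order, 3 of the 10 genes kept their place in WT CD4 with replicate 2 alone, 6 in STAT3KO CD4 and 4 in WT CD8 T cells with replicate 1 alone. The causes were not tested.

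The values that changed direction lay near 0 or rest on replicates far apart. Adora2a, CD8 over CD4 in WT, was -0.0073 with no filter and -0.010 on both log2 RPKM scales, and the difference of the Art2b effects was -0.0074 on log2(RPKM + 1). Leaving out libraries in turn gave -0.15 to 0.041 for Adora2a in STAT3KO CD4, and in STAT3KO CD8 -0.17 to 0.64 for Nt5e, -0.58 to 0.23 for Cd38 and -0.66 to 0.44 for P2rx4. The differences of the effects ranged from -0.16 to 0.24 (Ada), -0.30 to 0.79 (P2rx4), -0.45 to 1.02 (P2rx7) and -0.56 to 0.63 (Art2b). CD8 over CD4 ranged from -0.011 to 0.38 (Ada) and -0.14 to 0.11 (Adora2a) in WT, and from -0.10 to 0.70 (Cd38) in STAT3KO T cells.

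The labels give the replicates a number and, in the titles, library numbers that run close together within a replicate number, without saying that either marks a shared batch, and deviations of same-numbered libraries correlated across genes with r between 0.424 and 0.671. With the replicate number as a block, 4 of the 9 genes were called in STAT3KO CD4 (also P2rx7, adjusted p 0.00205, and Nt5e, 0.00927), 2 in STAT3KO CD8 (Entpd1, 0.00595, and Art2b, 0.00135), 1 for the difference of the effects (Nt5e, 0.0289), and 5 between STAT3KO cell types. Between WT cell types the block added Cd38 and Art2b.

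Over all genes, the calls of 1444 in STAT3KO CD4, 257 in STAT3KO CD8, 0 for the difference, 2960 between WT and 1555 between STAT3KO cell types became 3747, 2258, 403, 5232 and 3689 with the block. In STAT3KO CD8 there were 885 with DESeq2, 815 with the likelihood-ratio test, 454 with no filter and 37 with the 4 libraries alone, and for the difference 188, 137 and 44 with the first 3 and 13 on log2(RPKM + 1). Between WT cell types the 4 libraries alone gave 1919. Leaving out libraries gave 412 to 1307, 7 to 224, 0, 1546 to 2598 and 457 to 1554. With 2 pools a group, the counts bound Adora2b only to the limits given.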
